A study of Oryza sativa with 36 samples.

Results

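Young panicles of the rice variety MILT1444, grown with full water supply, were set against those of 5 other varieties grown in the same way. The members are the 3 well watered MILT1444 arrays out of 36 arrays in the series, chosen by their labels, and the comparison used the 15 well watered arrays of the other varieties. MILT1444 is a drought tolerant japonica rice. The other varieties were EMATAYIN and HUHAN3, which are tolerant japonica, DOURADOAGULHA, which is tolerant indica, KHAUMEO, which is sensitive indica, and NIPPONBARE, which is sensitive japonica. All RNA came from panicles 2 cm long at the stage when pollen mother cells form, from watered plots that were the controls of a drought experiment, and each variety had 3 arrays from independent experiments. A variety is a single genotype, so a difference belongs to MILT1444 as grown here, and its error measures the spread between arrays of a variety and not the spread between varieties. The arrays carry probe sets, short groups of probes that each read a stretch of a transcript, and were designed on the NIPPONBARE genome.

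At this stage of panicle growth the branches and florets are laid down, and inside the anthers the cells that will enter meiosis and the tapetum that feeds them take shape. Rice varieties differ from each other in genes that are missing, duplicated or rearranged as well as in how strongly shared genes are transcribed. A probe set that matches the sequence of 1 variety and not of another gives a low intensity in the other whatever its RNA level, and which of these lies behind a difference between varieties was not tested. Families that change often between rice varieties include secreted defence proteins such as chitinases, which cut the chitin of fungal walls, and germin-like proteins, which sit in the cell wall and stand in tandem rows on chromosomes.

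Each of the 18 arrays correlated best with another array of its own variety, and each had its best match among the drought-stressed arrays in its own variety. MILT1444 replicate 3 stood apart from the other MILT1444 arrays. Its mean correlation with them was 0.985, against a highest correlation of 0.984 with a HUHAN3 array, whereas the mean was 0.988 for replicate 1 and 0.990 for replicate 2. A set of 12 probe sets was at 50 or less in MILT1444 replicates 1 and 2, at 500 or more in KHAUMEO and at 100 or less in the other 4 varieties. In MILT1444 replicate 3 all 12 lay above replicates 1 and 2, at 2.23 to 5.50% of the way to the KHAUMEO level, with a median of 3.35%. LOC4334900 was one of them, with intensities of 42.3, 37.8 and 212 in MILT1444 replicates 1, 2 and 3, against a mean of 3881 in KHAUMEO. In the other 44 combinations of an array and a bright variety that held 5 or more such probe sets, the median lay between -1.21 and 0.59%. The thresholds were chosen after these values were seen, and how KHAUMEO transcripts came to be read on this array was not tested. Values without replicate 3 are therefore given beside the results below that turn on it.

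**Figure D1:**
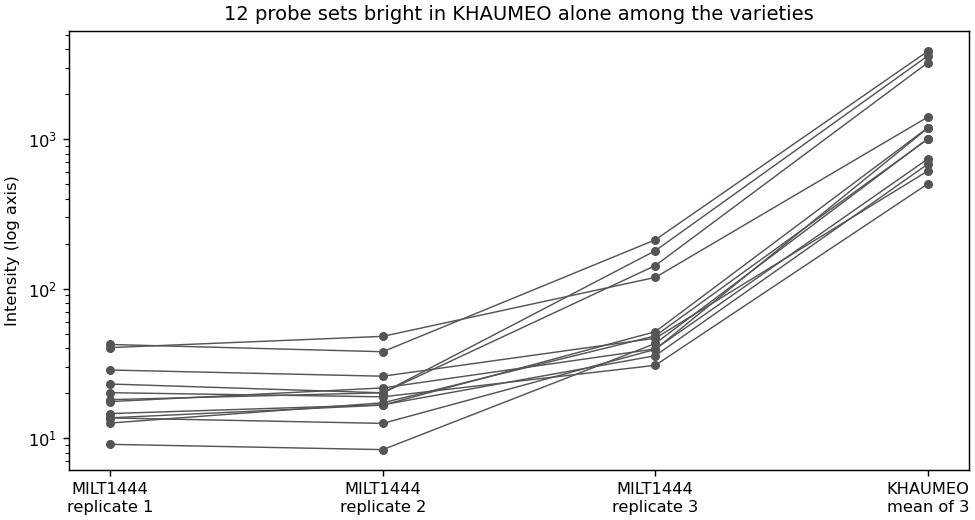
Intensity (log axis) of the 12 probe sets that were bright in KHAUMEO alone, in the 3 well watered MILT1444 arrays and as the mean of the 3 KHAUMEO arrays, with a line for each probe set. All 12 lines step up at MILT1444 replicate 3, to 2.23 to 5.50% of the way to KHAUMEO.

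Replicate 3 also carried more heat shock protein RNA. The mean log2 intensity of 26 heat shock protein genes was 7.89, 8.24 and 9.45 in the MILT1444 arrays and 7.98 to 9.96 in the others, and replicate 3 had the highest value in 6 of 6 varieties. HSP17.4, a small chaperone of the cytosol, had intensities of 173, 233 and 2009 in the MILT1444 arrays and 144 to 2907 in the others. None of the 26 genes was called in limma's fit with replicate 3, though 2 were higher and 3 lower at an unadjusted p of 0.05. Without replicate 3, 5 were called lower in MILT1444, HSP23.2, HSP17.4, HSP26.2, HSP17.9 and HSP18.1, by 1.29 to 2.34 on the log2 scale. Each gene was read by its brightest probe set. HSP18.0, whose symbol the annotation also gives to another gene and which was therefore outside the list, was called higher at 1 of its 3 probe sets, by 1.38 ± 0.23 (adjusted p = 5.87e-04).

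The panicles carried the RNA of florets in all 6 varieties. MADS1, a master gene of the floret, had a mean intensity of 7291 in MILT1444 and 5951 to 8099 in the other arrays, and MADS16, which sets stamen identity, had 5684 in MILT1444 and 5510 to 7269 in the others. MEL1, an Argonaute protein of germ cells, had 2658 in MILT1444 and 1552 to 3989 in the others. PCNA, the sliding clamp of DNA replication, had 4459 in MILT1444 and 3357 to 5524 in the others. The seed storage gene GLUA1 was dim throughout, at 9.95 in MILT1444 and 6.01 to 15.2 in the others. None of these genes was called between MILT1444 and the mean of the others in limma's fit (adjusted p = 0.734, 0.417, 0.993, 0.976 and 0.985 in this order). Other markers of tissue and stage were called, and are described below. APO2 of the inflorescence meristem and PAIR2 of meiosis were higher in MILT1444, by 1.10 and 1.2 on the log2 scale. GLB1 of the seed, with 141 to 1113 in the other arrays, and TDR of the tapetum were lower (-1.58 and -1.52). The groups were therefore not alike in all such markers. Green tissue markers were present. CAB2R, a chlorophyll-binding protein, had 1610, 5446 and 7754 in the 3 MILT1444 arrays and 3075 to 10396 in the others, and RCA, the activase of the carbon-fixing enzyme Rubisco, had 116, 155 and 205, against 180 to 621 (log2 difference -0.75, adjusted p = 0.0072). Without replicate 3, CAB2R was called lower in MILT1444 (-1.23, adjusted p = 0.0246). The part of leaf-like tissue in other differences was not tested.

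Of 57194 probe sets, 1124 (1.97%) were higher and 651 (1.14%) were lower in MILT1444 than in the mean of the other 5 varieties. A call needed a 2-fold difference or more together with an adjusted p of 0.05 or less in limma's fit, in which each other variety had the same weight. By genes, taking the brightest probe set of each of 17905 genes, 336 (1.88%) were higher and 192 (1.07%) were lower. Few calls held against every variety. Against all 5 varieties at once, 36 probe sets (0.0629%) were higher and 31 (0.0542%) were lower in MILT1444, each called against the mean and against each variety in the same direction. Without replicate 3 the counts were 1185 higher and 979 lower against the mean, of which 1049 and 629 were also called with it, and 52 higher and 43 lower against each variety. The counts against the mean were 575 higher and 301 lower on log2 of the value plus 50, which shrinks differences among dim probe sets, and 2 higher and 5 lower when each variety entered as a single mean.

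Most calls against the mean came from a few of the varieties. Of the 1124 higher probe sets, 515 were called against 2 varieties, and for 421 of all 1124 these were DOURADOAGULHA and KHAUMEO, the indica pair, with no japonica variety passing. Of the 651 lower probe sets, 103 had that pattern and 44 were called against NIPPONBARE alone. MILT1444 was nearest to HUHAN3, with 700 probe sets (1.22%) called between them, 352 higher and 348 lower in MILT1444. It differed from EMATAYIN at 1576 (2.76%), from NIPPONBARE at 2180 (3.81%), from DOURADOAGULHA at 3204 (5.6%) and from KHAUMEO at 3407 (5.96%). The balance turned with the variety, with 2262 higher and 1145 lower against KHAUMEO and 580 higher and 1600 lower against NIPPONBARE, the variety on which the probes were designed. By the same rule 67 probe sets set MILT1444 apart, against 39 for HUHAN3 (0.0682%), 185 for EMATAYIN (0.323%), 395 for KHAUMEO (0.691%), 435 for NIPPONBARE (0.761%) and 437 for DOURADOAGULHA (0.764%).

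**Figure D2:**
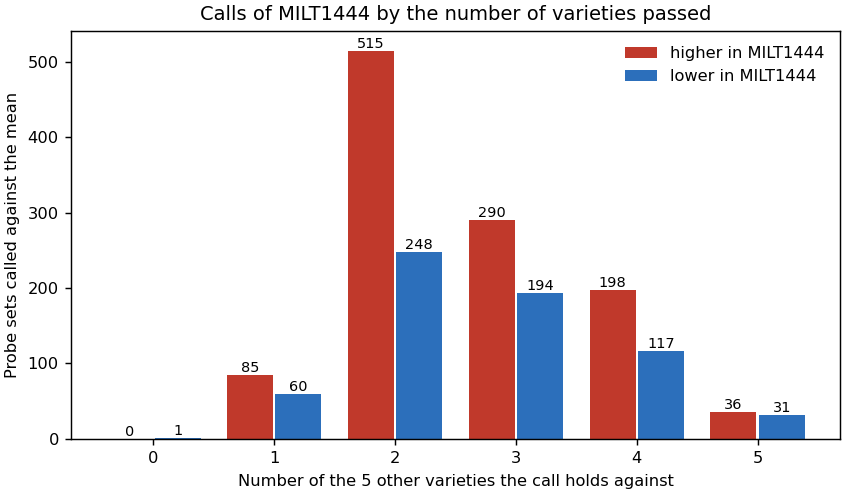
Number of probe sets (vertical axis) called higher or lower in MILT1444 against the mean of the other 5 varieties, by how many of these varieties the call also held against (horizontal axis). The tallest bars, 515 and 248, stand at 2 varieties, and 36 and 31 probe sets reached 5.

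The 67 probe sets apart from each variety covered 17 genes higher and 19 genes lower in MILT1444, and the remaining probe sets had no gene in the annotation used. The 3 MILT1444 arrays did not overlap the 15 others for 36 of the 36 higher and 30 of the 31 lower probe sets. Over all probe sets tested, 0.846% had no overlap. The median log2 difference was 2.27 for the higher and -2.12 for the lower probe sets, and 9 higher and 12 lower ones differed by 8-fold or more. Of the lower probe sets, 22 were dimmer on all 3 MILT1444 arrays than the median probe set of the array, and for 10 of these all 15 other arrays were brighter than theirs. Of the higher probe sets, 5 showed the opposite picture. Without replicate 3, 33 of the 36 and 30 of the 31 were still apart from each variety. Genes with a symbol among them were the chitinases Cht4 and Cht5, the germin-like genes GER2 and GER6, the lectin gene salT and the kinase gene CIPK10.

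The chitinase gene Cht4 was 10.9-fold higher in MILT1444. Its intensities were 98.0, 125 and 111 in MILT1444, and in the other arrays the lowest was 3.46, the median 9.10 and the highest 30.4. All MILT1444 arrays lay above all others, and NIPPONBARE came nearest. The log2 difference was 3.45 ± 0.28 (SE, limma adjusted p = 2.41e-07) against the mean and 2.05 against NIPPONBARE. Cht5, another chitinase gene, lay next to Cht4 among the genes with a probe set on chromosome 4, with 2 annotated genes between them. It had 344, 463 and 206 in MILT1444, against 15.02, 63.1 and 125 as the lowest, median and highest of the others. Its log2 difference was 2.65 ± 0.31 (adjusted p = 1.45e-05) against the mean and 1.51 against NIPPONBARE, again the nearest variety. Of 10 genes named as chitinases, a family looked at because of Cht4 and Cht5, these 2 were called higher and none lower, beside 1.88% and 1.07% of all genes. CH16, another secreted chitinase, differed by 0.79 (adjusted p = 2.35e-04) and missed the fold threshold, with 57.4, 60.4 and 47.2 in MILT1444.

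The germin-like gene GER2 was 9.77-fold higher in MILT1444. Its intensities were 280, 333 and 407 in MILT1444, against 14.7, 33.3 and 84.6 as the lowest, median and highest of the others, with no overlap. The log2 difference was 3.29 ± 0.18 (adjusted p = 1.79e-09). GER6 stands close by on chromosome 8, with 3 annotated genes between them, and had 2226, 2416 and 2241 in MILT1444, against 159, 302 and 667 in the others. Its log2 difference was 2.83 ± 0.30 (adjusted p = 4.7e-06), and for both genes NIPPONBARE was the nearest variety, at 2.36 and 2.33 below MILT1444. The change was not shared by the whole row. GER1, between GER2 and GER6, had 5.99, 3.26 and 7.05 in MILT1444 and 4.35 to 8.77 in the others, and GER3, on the other side of GER2, had 30.5, 27.2 and 24.4 in MILT1444 and 22.8 to 38.1 in the others (adjusted p = 0.384 and 0.859). Of 9 germin-like genes with a name, looked at because of GER2 and GER6, these 2 were higher and 6 were not called, beside 1.88% higher and 1.07% lower of all genes. GER8 on chromosome 1 was lower, by 1.76 on the log2 scale (adjusted p = 9.02e-06). It had 207, 189 and 367 in MILT1444, against 237 to 2026 in the others, where KHAUMEO was about as dim, at 237, 286 and 280.

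The gene salT, which encodes a mannose-binding lectin first known from salt-treated rice, was higher at both of its probe sets. The probe set with the larger difference had 162, 201 and 244 in MILT1444, against 44.5, 73.1 and 108 as the lowest, median and highest of the others. Its log2 difference was 1.51 ± 0.15 (adjusted p = 3e-06), and that of the other probe set was 1.27 ± 0.12 (adjusted p = 1.37e-06). Neither overlapped. CIPK10, a protein kinase that calcium sensors of the CBL family bind, was lower in MILT1444. It had 29.0, 31.0 and 33.1 in MILT1444, against 65.2, 144 and 358 in the others, a log2 difference of -2.31 ± 0.38 (adjusted p = 4.6e-04). Of the other 3 CIPK10 probe sets, 2 were also called lower, by 1.94 and 1.07, and the remaining one was not called (-0.05, adjusted p = 0.958).

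**Figure D3:**
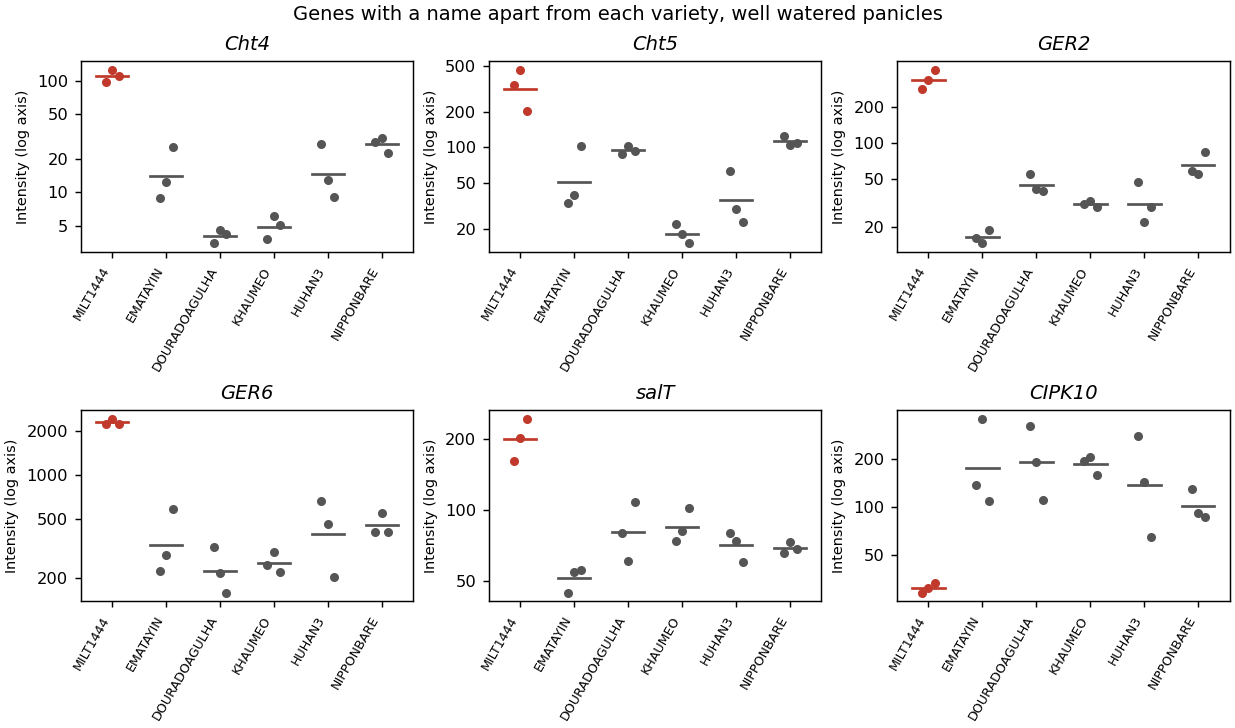
Intensity (log axis) of the 6 named genes apart from each variety, with a point for each well watered array and a bar at the geometric mean of the 3 arrays of a variety. MILT1444, on the left of each panel, lies above all others for Cht4, Cht5, GER2, GER6 and salT and below all others for CIPK10.

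The highest differences belonged to probe sets with no named gene. The probe set with the largest difference, which the annotation pairs with no gene, had 2436, 2099 and 2461 in MILT1444, and the others had a lowest of 14.6, a median of 21.7 and a highest of 220, the highest being a HUHAN3 array. Its log2 difference was 6.51 ± 0.47 (adjusted p = 4.76e-08). The next of these probe sets had 1023, 1200 and 645 in MILT1444, against 20.4, 24.5 and 429 as the lowest, median and highest of the others, where NIPPONBARE held the high values, and it differed by 4.49. A probe set that the array's design numbers beside it reads LOC4348813 on chromosome 10, which differed by 4.30 and was also nearest in NIPPONBARE. LOC4340077 on chromosome 6 had 75.9, 61.6 and 107 in MILT1444, against 7.02 to 11.4 in the others, so that the 5 other varieties were alike and dim. The genes known by a LOC number alone were chosen after their values were seen, here and below.

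On chromosome 2, 5 neighbouring genes with a probe set were all called higher, the longest such run in either direction. LOC9266559, in this run, had 4293, 3684 and 3698 in MILT1444, and group means of 1417 in HUHAN3 and 1832 in NIPPONBARE, but of 23.7, 26.7 and 27.3 in EMATAYIN, DOURADOAGULHA and KHAUMEO. Its log2 difference of 4.84 ± 0.10 was apart from each variety, with 1.08 against NIPPONBARE. The other 4 genes of the run were bright in MILT1444, HUHAN3 and NIPPONBARE alike. LOC4328398 averaged 6148 in MILT1444, 5598 in HUHAN3 and 3978 in NIPPONBARE, and 51.5 to 55.7 in the remaining varieties. Other runs had 3 genes at most, with 9 such runs higher and none lower.

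Among the lower probe sets, several were bright in all 5 other varieties and near the bottom of the scale in MILT1444. LOC4333338 on chromosome 3 had 17.0, 15.3 and 60.9 in MILT1444, against 1363, 1641 and 1895 as the lowest, median and highest of the others. Its log2 difference was -5.996 ± 0.265 (adjusted p = 1.1e-10), and -6.63 ± 0.10 without replicate 3. LOC4351117 on chromosome 11 had 30.6, 34.7 and 174 in MILT1444, against 3049, 3442 and 3709 in the others, a log2 difference of -5.90 ± 0.33, and -6.71 ± 0.09 without replicate 3. Replicate 3 was the highest of the 3 MILT1444 arrays at 22 of the 31 lower probe sets and at 13 of the 36 higher ones. Of the lower probe sets without a gene, the one that differed most had 13.0, 13.8 and 23.2 in MILT1444, against 394 to 835 in the others. The next had 38.7, 29.3 and 48.9 in MILT1444, against 525 to 852 in the others.

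A different pattern was seen on chromosome 12. LOC4352472 had 1.97, 1.43 and 1.78 in MILT1444, near the floor of 1 in the deposited values, and group means of 1164 in EMATAYIN, 1136 in HUHAN3 and 792 in NIPPONBARE, but of 6.27 in DOURADOAGULHA and 8.06 in KHAUMEO. Its log2 difference of -6.35 ± 0.22 therefore rested on the japonica varieties. Against DOURADOAGULHA it was -1.87, between values that were all close to the floor. LOC4352463, with 14 annotated genes between the 2, was also lower, at 9.72, 10.6 and 11.4 in MILT1444 and 28.4 to 202 in the others.

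Genes apart from each variety and lower were gathered on chromosome 8. Of the 19 such genes, 9 lay on chromosome 8, and no other chromosome held more than 2. A stretch of 96 genes with a probe set, 7.96% of those on the chromosome, held 8 of them, from LOC4345108 to LOC4345283. In this stretch 15 genes (15.6%) were called lower and 3 higher against the mean at any of their probe sets, beside 1.35% lower and 2.38% higher over all genes counted in this way. By the brightest probe set of each gene, 12 (12.5%) were lower, beside 1.07% over all genes. The stretch was bounded by genes apart and lower, so these entered the counts by its choice. In windows of 25, 50 and 100 neighbouring genes with a probe set, at most 6, 9 and 15 were called lower on chromosome 8. Chromosome 7 held at most 6, 8 and 11. Genes apart and lower numbered at most 3, 5 and 8 in these windows on chromosome 8, and 2 on any other chromosome. LOC4345168 had 17.0, 14.8 and 24.1 in MILT1444, against 383, 529 and 929 as the lowest, median and highest of the others, a log2 difference of -5.03 ± 0.24. LOC4345175 had 24.5, 21.9 and 69.7 in MILT1444 and 578 to 1254 in the others, a difference of -4.67 ± 0.24. LOC4345225 had 13.9, 13.3 and 19.8 in MILT1444 and 181 to 626 in the others, a difference of -4.34 ± 0.13. These 3 genes were separate from all 15 other arrays by a wide margin. The other 5, LOC4345108, LOC4345190, LOC4345232, LOC4345266 and LOC4345283, differed by -1.62 to -2.17. The other probe sets of LOC4345190, among them its brightest, differed by -0.99 and -0.89 and were not called. LOC4345232 overlapped the other varieties, with 94.1 in replicate 3 against their lowest of 93.9.

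The low genes of the stretch were spread among genes that were not called. The median log2 difference over its 96 genes was -0.08, and -0.05 without the called genes, beside -0.0029 over all genes. The 3 genes called higher stood among the lower ones. The number of its genes called lower in MILT1444 was 10 against DOURADOAGULHA, 12 against KHAUMEO, 13 against EMATAYIN, 14 against HUHAN3 and 17 against NIPPONBARE. EMATAYIN had 3 genes of the stretch apart and lower by the same rule, and the other varieties had none, while NIPPONBARE had 1 apart and higher. Each variety had calls in the stretch against the mean of its own 5 others. They were 4 lower and 11 higher in NIPPONBARE, 7 and 5 in DOURADOAGULHA, and 6 and 4 in EMATAYIN. KHAUMEO had 5 and 3 and HUHAN3 2 and 5, beside 15 and 3 in MILT1444. Counted by probe sets, 8 of the stretch were apart and lower in MILT1444, and 7 to 9 when any of the 18 arrays was left out. Apart from CCC1, a cation-chloride cotransporter gene that differed by -1.03, the lower genes carry no name in the annotation used, so what they encode is not given here. The bounds of the stretch were chosen after these values were seen.

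**Figure D4:**
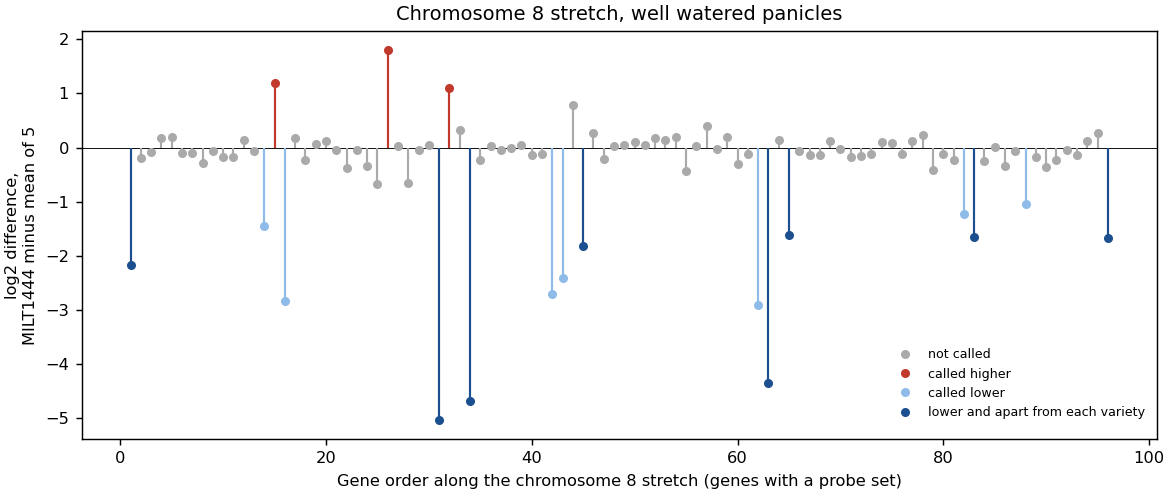
Log2 difference between MILT1444 and the mean of the other 5 varieties (vertical axis) for the 96 genes of the chromosome 8 stretch in their order along the chromosome (horizontal axis), at the called probe set where there is one and otherwise at the brightest. The 8 genes apart from each variety reach -1.62 to -5.03, while most genes between them stay near 0.

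Most of these differences were seen again in separate arrays of drought-stressed panicles, for which water had been drained. There, in a fit of their own, MILT1444 was higher than the mean of the other 5 varieties at 1287 probe sets (2.25%) and lower at 723 (1.26%). Of the 1124 probe sets higher in well watered panicles, 974 (86.7%) were called higher in drought-stressed panicles too, and of the 651 lower ones 540 (82.9%) were called lower, while none was called the opposite way. Of the calls made without replicate 3, 78.8% of the higher and 57.6% of the lower were called again. Of the 67 probe sets apart from each variety, 35 of the 36 higher and 29 of the 31 lower were called the same way against the mean under drought, and 23 and 26 were apart from each variety there. The exceptions against the mean were LOC4342108, LOC4345232 and 1 probe set without a gene. LOC4345232 had 214, 199 and 207 in the drought-stressed MILT1444 arrays and 48.1, 65.5 and 94.1 in the well watered ones. The change of its difference from the others was 1.32 and was not called in limma's fit of 36 arrays (adjusted p = 0.138).

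All 6 named genes were called in the same direction against the mean under drought, and Cht4, Cht5, GER2 and CIPK10 were again apart from each variety. Cht4 had 261, 139 and 146 in drought-stressed MILT1444 panicles, against 2.37 to 53.0 in the other drought-stressed arrays, and GER2 had 1408, 400 and 460, against 15.3 to 133. CIPK10 had 49.4, 32.0 and 27.8, against 72.1 to 236. Cht5 had 601, 342 and 422, against 16.2 to 261. GER6 and salT were not apart from each variety under drought. GER6 had 2532, 1484 and 2042, against 98.3 to 1316, without overlap. At the first probe set of salT the values were 1779, 533 and 500 in MILT1444, against 43.7 to 337 in the others, a log2 difference of 3.03 ± 0.48 (adjusted p = 3.16e-04). Its second probe set had 629, 127 and 147 in MILT1444, against 22.0 to 163 in the others, so that the groups overlapped. The 12 transcripts bright in KHAUMEO were at 10.5 to 76.1 in the drought-stressed MILT1444 arrays. On the chromosome 8 stretch, 14 genes were called lower under drought and 6 of the 8 were again apart from each variety. LOC4333338 had 14.95, 13.7 and 11.5 and LOC4351117 had 24.8, 37.5 and 33.8 in these arrays, without the higher value of well watered replicate 3.

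**Figure D5:**
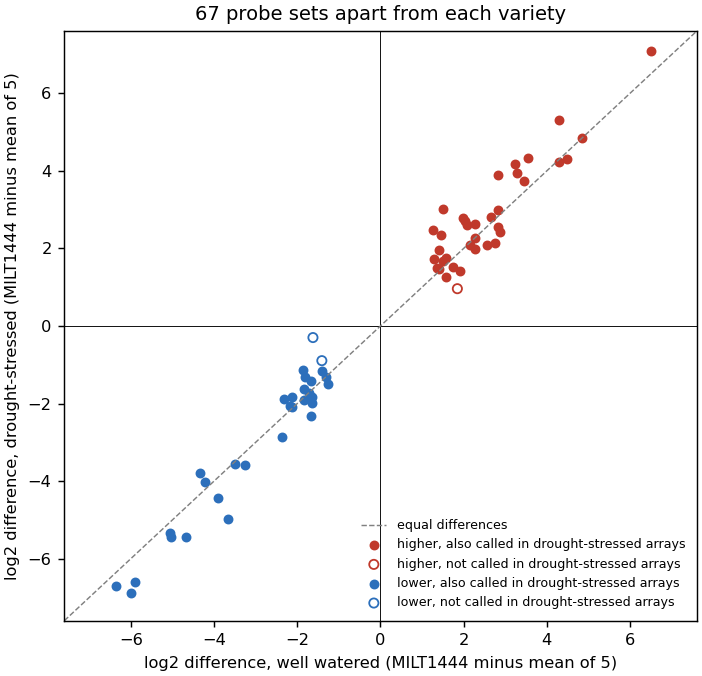
Log2 difference between MILT1444 and the mean of the other 5 varieties in drought-stressed arrays (vertical axis) against that in well watered arrays (horizontal axis) for the 67 probe sets apart from each variety, with a dashed line where both are equal. All 67 keep their sign, and the 3 open points were not called in the drought-stressed arrays.

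The difference itself changed with the treatment at 6 probe sets (0.0105%) in a fit of all 36 arrays, 5 upward and 1 downward. This count rested on single arrays, being 0 without drought-stressed replicate 1 and 57 without well watered replicate 3. With the same-numbered watered and drought-stressed arrays of a variety taken as pairs it was 0. LOC4325768 had 54.9, 50.1 and 54.4 in drought-stressed and 19.9, 24.9 and 27.9 in well watered MILT1444 panicles, while the other varieties had 9.47 to 27.8 under drought and 12.7 to 22.2 when watered. Its difference from the others grew by 1.11 ± 0.17 on the log2 scale (adjusted p = 0.0092). LOC4350534 had 310, 173 and 141 under drought and 29.4, 39.7 and 52.1 when watered in MILT1444, and the other varieties had 14.8 to 161 under drought and 16.5 to 111 when watered, which overlapped MILT1444. Its difference grew by 1.81 ± 0.31 (adjusted p = 0.0263). The MILT1444 arrays did not overlap between treatments in either gene.

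Genes of lists drawn up by role, which covered panicle, hormone, stress, metabolism, tissue and reference genes, were called about as often as genes at large. Over 37 lists with 770 genes, 10 genes (1.30%) were called higher and 8 (1.04%) lower, near the 1.88% and 1.07% over all genes, and 24 lists held no called gene, each gene being read by its brightest probe set. The median log2 difference over the list genes was 0.01. The lists without a call included the 18 floral organ MADS-box genes (median -0.05, with 2 higher and 1 lower at an unadjusted p of 0.05), 16 genes of DNA replication (0.14), 21 of heading date and clock (0.14), 20 heat shock factors (-0.0012), 10 SAPK kinases (0.11), 31 cellulose synthases (-0.05), 30 expansins and xyloglucan enzymes (-0.07), 47 metal transporters (-0.01), 17 genes of diterpenoid phytoalexins (-0.04) and 10 reference genes (-0.0022). Among the list genes, CIPK10 alone was apart from each variety. Without replicate 3, 15 list genes were called higher and 23 lower. The 49 homeobox genes had a median of 0.09 and no call at their brightest probe sets, but OSH1 and OSH43 were called at another probe set. OSH1, which keeps meristem cells undifferentiated, had 2927, 3436 and 2857 there in MILT1444, against 182 to 2622 in the others, where the indica pair was low. The difference was 1.62 ± 0.14 at this probe set (adjusted p = 2.84e-07) and 0.23 at the brightest one. OSH43 had 92.4, 121 and 122 in MILT1444, against 19.5 to 111, a difference of 1.11 ± 0.20 (adjusted p = 0.0011), and 0.07 at its brightest probe set.

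In the list of panicle branching and meristem genes, 3 of 14 were higher and none lower, beside 1.88% and 1.07% of all genes, with a median of 0.24. In the drought-stressed arrays none of the 14 was called. MADS55, an SVP-type MADS-box gene, had 517, 896 and 212 in MILT1444, against 71.8, 132 and 438 in the others. APO2, which keeps the inflorescence meristem from turning into florets too early, had 1912, 2128 and 878 in MILT1444, against 376, 687 and 1677. FZP, an ERF transcription factor needed for spikelet formation and also listed as ERF78, had 46.7, 48.9 and 16.4 in MILT1444, against 8.12, 14.7 and 34.9. Replicate 3 was the lowest MILT1444 array in all 3 genes and overlapped the other varieties. In this order the log2 differences were 1.60 ± 0.42, 1.10 ± 0.29 and 1.19 ± 0.31 (adjusted p = 0.0224, 0.0256 and 0.0242), and each call was lost without replicate 1 or without replicate 2. Under drought the differences were 0.28, 0.66 and 0.06.

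Among genes of reproductive cells, PAIR2, which pairs chromosomes in meiosis, was higher in MILT1444 than in the mean. It had 1686, 1632 and 1465 in MILT1444, against a lowest of 256, a median of 771 and a highest of 1770 in the others, with a log2 difference of 1.2 ± 0.09 (adjusted p = 6.34e-08). HUHAN3 and NIPPONBARE were as bright as MILT1444, so that the call held against 3 varieties. No other gene of the 14 in the meiosis list was called. TDR, a transcription factor of the tapetum, had 56.9, 31.8 and 126 in MILT1444, against 30.3, 177 and 844 in the others, a difference of -1.52 ± 0.33 (adjusted p = 0.00617) that was lost without replicate 2. Without replicate 3 the difference was -2.04 (adjusted p = 4.43e-04). With all arrays TDR was the only call among 13 genes of tapetum and pollen wall, whose median was -0.09. BHLH142, which acts with TDR, had 297, 241 and 594 in MILT1444, against 213, 696 and 1213, and differed by -0.86 (adjusted p = 0.0159), short of the fold threshold. Without replicate 3 it was called lower, at -1.24 (adjusted p = 2.8e-04). GLB1, a globulin of the seed, had 97.4, 149 and 205 in MILT1444, against 141, 593 and 1113, a difference of -1.58 ± 0.20, and EMATAYIN and HUHAN3 were nearly as dim as MILT1444.

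Calls in the other lists were few and mostly reflected some of the varieties. APX5, an ascorbate peroxidase that removes hydrogen peroxide, had 1135, 1116 and 1059 in MILT1444, and in the others a lowest of 21.7, a median of 932 and a highest of 1151. Its log2 difference of 1.93 (adjusted p = 7.46e-10) held against the indica pair, and against the 3 japonica varieties it was 0.10 (adjusted p = 0.761). TIP4-2, a water channel of the vacuole membrane, had 2325, 2693 and 1684 in MILT1444, against 283, 541 and 1525, with no overlap and a difference of 1.74 (adjusted p = 1.03e-06). PP2C18, a protein phosphatase, had 53.9, 53.5 and 62.6 in MILT1444, against 37.9, 249 and 385, and was lower than 4 varieties while DOURADOAGULHA was as dim. The ammonium transporter AMT2-1 had 112.3, 95.0 and 91.1 in MILT1444, against 23.4, 53.4 and 79.5, with no overlap and a difference of 1.15 (adjusted p = 7.46e-05). NIA1, a nitrate reductase, IAA7 and IAA26, repressors of auxin response, were higher by 1.10, 1.05 and 1.05. OPR10 and OPR12, enzymes related to jasmonate synthesis, the dehydrin RAB25 and the phosphatase PP2C29 were lower by 1.05, 1.01, 1.23 and 1.59 on the log2 scale. RAB25 had 68.8, 84.0 and 231 in MILT1444, against 113, 230 and 771 in the others, and its call was lost without replicate 1 (adjusted p = 0.282) or replicate 2 (adjusted p = 0.222). The calls of IAA26 and PP2C29 were also lost without either of these arrays, and that of OPR12 was lost without replicate 3, at -0.94. RAB25, IAA26 and PP2C29 were called without replicate 3, at -1.76, 1.51 and -1.74.

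Of the genes that the study's text names and that could be matched, IAA26 alone was called with all arrays, and LABA1 as well without replicate 3. The differences were -0.22 ± 0.18 for MADS26, a MADS-box gene of stress responses, 0.59 ± 0.36 for SAPK9, a kinase of abscisic acid signalling, and -0.11 ± 0.18 for IAA18 (adjusted p = 0.661, 0.471 and 0.884 in this order). LABA1, a cytokinin-activating enzyme that governs awns, differed by 0.96 ± 0.17 (adjusted p = 9.25e-04), just short of a 2-fold difference, and by 1.06 without replicate 3 (adjusted p = 0.00227). It had 1349, 924 and 901 in MILT1444 and 284 to 1051 in the others.

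Other probe sets of the same genes mostly pointed the same way but were called less often. The 341 called probe sets whose gene had another probe set came with 558 others, of which 422 had the same sign, 182 were called in the same direction and 16 in the opposite one. For the 12 probe sets apart from each variety that had another, 18 of 20 others had the same sign and 7 were called. LOC4352472 shows how far they can part. Its second probe set differed by -0.46 (adjusted p = 0.146) where the first differed by -6.35. A second probe set can read another transcript or a part of the gene without sequence differences, and which applied was not tested.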

How the data were processed

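Labelled RNA of young panicles, from 6 rice varieties under full water or drought, was read on Affymetrix rice arrays in 3 arrays per group. Per the labels, the authors ran RMA through affy, and what they deposited is intensity on a linear scale with a floor of 1. RMA usually returns log2 values, and neither the labels nor the methods say how they became linear. Array medians ran between 55.8 and 68.84, no column of the table was left without a sample, and the number of arrays limits the precision.

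Values were turned to log2 and limma 3.58.1 (R 4.3.3, default eBayes) was fitted to 57194 probe sets, without 187 control probe sets, with 1 mean per variety over the 18 well watered arrays. The contrasts were MILT1444 minus the mean of the 5 others, and MILT1444 minus each. Benjamini-Hochberg adjustment ran over all probe sets of a contrast. Drought-stressed arrays had a fit of their own, and the change between treatments was fitted on 36 arrays. On simulated data for the main contrast with 57194 probe sets, changes of 1.5 (log2) were recovered against the mean for 98 out of 100 and against each variety for 89, and changes of 2.5 for 100 and 97. In the simulation all varieties shared 1 mean per probe set with normal noise, without differences among the other varieties or an odd array. The real arrays differ from it in both ways, so these rates do not describe them.

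The platform table named a single gene for 22436 probe sets, more than 1 gene for 95 and no gene for 34663. Symbols and gene order came from RefSeq's table of assembly ASM3414082v1, where 2457 of 17905 genes had a symbol. Each gene in the lists was read by its brightest probe set. Genes named in the text were those with a symbol and apart from each variety (up to 12 each way), the 4 largest calls of a list, those in the study's text, the 2 largest probe sets each way without a gene, and the 5 smallest adjusted p of the change between treatments. The members and lists were chosen with earlier results of these data known. Other fits, filters, scalings and comparison varieties were tried, and each array was left out in turn. The table holds no gene descriptions, so genes could be chosen by symbol only.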

Additional observations from a re-analysis of the deposited data

Results flagged for a closer look

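The difference between MILT1444 and the other 5 varieties was not the same in drought-stressed as in well watered panicles at 6 probe sets in limma's fit of 36 arrays, by a test of the change itself. With the same-numbered watered and drought-stressed arrays of a variety taken as pairs, none of the 6 was called. Separately, the heat shock level was highest in replicate 3 of 6 of 6 well watered varieties. An effect of the replicate number across varieties was not fitted for the change. The log2 difference under drought less that with full water was 1.11 for LOC4325768 and 1.81 for LOC4350534. Of 4 probe sets without a gene, it was 1.22 (adjusted p = 0.00699), 1.08 and 2.05 for those that moved up. For the one that moved down it was -1.64 (adjusted p = 0.0185), with 18.8, 37.4 and 26.9 in drought-stressed and 91.2, 91.4 and 57.4 in well watered MILT1444 panicles. There the other varieties had 6.09 to 41.9 under drought and 5.17 to 66.3 when watered, which overlapped MILT1444 in both. The probe set at 2.05 had 3002, 1817 and 1285 in drought-stressed and 255, 277 and 387 in well watered MILT1444 panicles, and the other varieties reached 2611 under drought. The probe set at 1.08, which was also apart from each variety when watered, had 383, 359 and 277 under drought and 157, 139 and 202 when watered, against at most 29.0 in the others. At an unadjusted p under 0.05 with the fold threshold there were 225 such probe sets. Groups held 3 arrays, so no array was tested as an outlier within its group.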

How the results depend on the processing

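The counts of probe sets higher and lower in MILT1444, higher and lower against each variety, and of list genes called (1124, 651, 36, 31 and 18) stayed within 1.5 times under a fit of all 36 arrays, trend and robust eBayes, quantile normalization, unadjusted p with the fold threshold, and scaling to ACT1, an actin gene, which moved the median of all probe sets by 0.03. Without the fold threshold they were 2846, 2019, 76, 69 and 75. With log2 of the value plus 50 they were 575, 301, 23, 13 and 9, and with only probe sets brighter than the median the lower calls numbered 363 and the higher calls against each variety 18. Against the 3 other japonica varieties 516 were higher and 628 lower than their mean, and 43 were higher and 97 lower against each. With 1 mean for each variety as the unit, 2 were higher, 5 lower and 0 list genes called, and calls against each variety could not be fitted. With 2457 named genes as the unit, which are fewer to test, 22 were higher, 22 lower, 5 higher and 0 lower against each variety. The cause of the other shifts was not tested.

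Leaving out single arrays gave 1096 to 1185 higher, 562 to 979 lower, and 28 to 52 higher and 29 to 43 lower against each variety. It gave 10 to 38 list genes and 7 to 9 probe sets apart and lower on the chromosome 8 stretch. Calls shared with the drought-stressed arrays numbered 1490 to 1507, and changes between treatments 0 to 57. The low and high ends of the lower calls came without MILT1444 replicates 2 and 3. Of 27 named genes called, 312 values under the other settings kept their direction, with 45 no longer called, as did 486 values without 1 array, with 21 no longer called.

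With the replicate number as a block in the well watered fit, 1132 were higher and 664 lower, 37 and 35 were apart from each variety, and 19 list genes were called. With the same-numbered watered and drought-stressed arrays of a variety as pairs, 0 changes between treatments were called. For same-numbered well watered arrays of MILT1444 and another variety, 11 of 15 correlations of deviations exceeded 0.1 (range -0.02 to 0.40). Replicate 3 also had the highest heat shock level in 6 of 6 varieties. The main fit left the replicate number out, and whether same-numbered arrays shared an effect was not tested.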
